A study of Bombyx mori with 6 samples.

Results

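Tubulins are the building blocks of microtubules, and the silkworm genome carries several gene copies of each chain. Described here are 6 alpha- and beta-tubulin copies of Bombyx mori, out of 16877 gene models in a deposited RNA sequencing table. Of these, 5 copies had no count in any library labelled siNC, namely the beta-tubulins KWMTBOMO09319, KWMTBOMO09320 and KWMTBOMO16009 and the alpha-tubulins KWMTBOMO00076 and KWMTBOMO13329. The last copy, the beta-1 chain-like gene KWMTBOMO12286, was counted in both groups. The copies were chosen from these counts, so their difference between the groups is given as a description, with no test. The table holds 1 tissue label for all libraries, so whether a copy is restricted to a tissue was not measured, and the copies are called by their counts.

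The tested libraries were 3 labelled siUFBP1, from material given a small interfering RNA against BmUFBP1, and the controls were 3 labelled siNC, given a negative control RNA. UFBP1 (DDRGK1) is a membrane protein of the endoplasmic reticulum that takes part in attaching the modifier UFM1 to other proteins. Per the labels, P50 strain larvae on day 3 of instar 5 received 2.5 µg of either RNA, and all of them received 5 µL of the baculovirus BmNPV 12 h later, so both groups were exposed to virus. The fat body, the storage organ of insects, was taken at 24, 48 and 72 h from a stated 30 larvae, with no time, sex or number of animals given for a library, and a field of the labels also names BmN, an ovary-derived cell line. The UFBP1 transcript itself (KWMTBOMO13599) stood at 33.9 ± 1.05 normalised CPM in siUFBP1 and 34.0 ± 2.71 in siNC (SD, n = 3 each; edgeR, adjusted p = 0.951), with log2 differences of 0.80 with library size alone (edgeR, adjusted p = 1.55e-10) and -0.14 with upper quartile scaling (edgeR, adjusted p = 0.0406). The authors' deposited log2 fold change for it was -0.0039 (DESeq2, false discovery rate 0.964). Its direction thus turned with the scaling, and no setting put it lower by more than 0.14 on the log2 scale. A clear reduction of the targeted transcript was not seen, so it gives no check of the labels. Directions below are those of libraries labelled siUFBP1. CPM are counts scaled to a common library size after TMM normalisation, which also corrects for composition, and n counts libraries.

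Alpha- and beta-tubulin pair into dimers that polymerise into microtubules, while gamma-tubulin starts new microtubules from a ring complex. Most cells use a few general copies for the spindle, for transport and for cell shape. Animals also keep copies that are made in particular cells, and in Drosophila a testis-specific beta-tubulin builds the axoneme of the sperm tail. Axonemes further need dynein arms, radial spokes and enzymes that add glutamate or glycine to tubulin tails. In the Drosophila fat body, microtubules are known for organising vesicle traffic and nuclear position.

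Depth bears on every 0 below. The libraries held 26610347, 25570725 and 53204480 counts in siUFBP1 and 28098267, 31760120 and 27100565 in siNC. A count of 0 in a siNC library therefore allows up to 0.0945 to 0.111 CPM before that correction, taking 3 counts as the limit, for counting error only. A lone 0 can also be no sign of absence: in siNC, of 8503 rows with at least 15 counts in a pair of libraries, 41 were listed at 0 in the remaining library, and in siUFBP1 this held for 48 of 10630 rows. The 5 copies were at 0 in all 3 siNC libraries.

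The 3 beta copies without siNC counts held most of the counts among the 5. KWMTBOMO09319, described as beta-tubulin and matched to a beta-4 chain in Swiss-Prot, had 69999, 65562 and 146678 counts in the siUFBP1 libraries, against 0, 0 and 0 in siNC. Per length this was 1478, 1433 and 1535 FPKM in siUFBP1, with siNC listed at 0 throughout. All siUFBP1 libraries were high and close together, and the groups did not overlap, as in 71.2% of 10729 rows that passed a filter on low counts. Of those rows, 6.35% had no siNC count, the property by which the copies were chosen.

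KWMTBOMO09320, a beta-tubulin with the gene symbol Tub4, had 47548, 46654 and 99210 counts in siUFBP1, against 0, 0 and 0 in siNC. Its level was 970 ± 16.3 FPKM in siUFBP1 (SD, n = 3), which is 0.655 ± 0.0186 of that of KWMTBOMO09319 in the same libraries. KWMTBOMO16009, a beta-tubulin of another locus, had 7682, 7492 and 16330 counts in siUFBP1, against 0, 0 and 0 in siNC, at 179 ± 5.00 FPKM in siUFBP1. The 3 beta copies thus kept the same order in each siUFBP1 library, with none overlapping the next.

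The alpha copies stood lower than the beta-4-like pair. KWMTBOMO00076, an alpha-1 chain-like gene, had 14039, 13449 and 28403 counts in siUFBP1, against 0, 0 and 0 in siNC, at 291 ± 1.60 FPKM in siUFBP1 (SD, n = 3). KWMTBOMO13329, an alpha-tubulin with the symbol Tua3, had 12835, 12327 and 26366 counts in siUFBP1, against 0, 0 and 0 in siNC, at 245 ± 3.00 FPKM in siUFBP1. Per length the first was 1.19 ± 0.00967 of the second within siUFBP1 libraries, a difference larger than their spread. Neither alpha copy had a library in which it reached the level of KWMTBOMO09320.

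KWMTBOMO12286, the copy present in both groups, matches a beta-1 chain, a kind that is used broadly in Drosophila. KWMTBOMO06086, KWMTBOMO06135 and KWMTBOMO12285 have the same match, so it does not mark a copy as general. KWMTBOMO12286 had 43667, 42065 and 93046 counts in siUFBP1, against 65256, 78242 and 67051 in siNC. On the normalised scale this was 1284, 1271 and 1266 CPM in siUFBP1, against 3045, 3213 and 3317 in siNC, with no overlap. The siUFBP1 mean was 0.399 of the siNC mean, a log2 difference of -1.33, in a comparison where 5.11% of filtered rows were called at least 2-fold lower and 22.7% at least 2-fold higher. Scaling moved this size: the log2 difference was -0.53 with library size alone, and with FPKM the means were 678 ± 22.0 in siUFBP1 and 990 ± 40.1 in siNC (SD, n = 3 each), a ratio of 0.685. The sign held in each of these. In bulk libraries such as these, fewer cells of a type and less RNA per cell cannot be told apart.

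**Figure D1:**
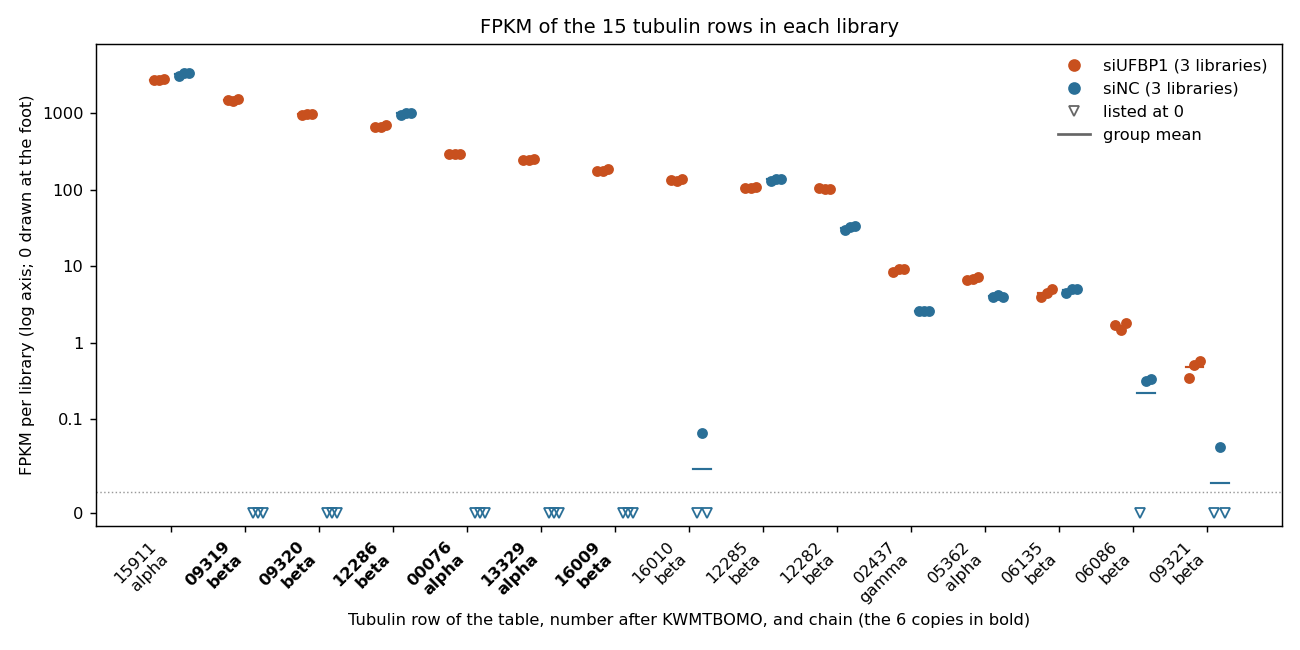
FPKM (log axis) of the 15 tubulin rows, ordered by their siUFBP1 mean, with 3 siUFBP1 libraries left of 3 siNC libraries for each row, short lines at group means and open triangles for values listed at 0. The 5 copies without siNC counts lie between 175 and 1535 FPKM in siUFBP1 and at 0 in all siNC libraries, while KWMTBOMO12286 is lower in siUFBP1 than in siNC.

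How the 5 copies varied among themselves was not used to choose them. KWMTBOMO09319 held 46.0%, 45.1% and 46.3% of their summed counts in the 3 siUFBP1 libraries, and KWMTBOMO09320 held 31.3%, 32.1% and 31.3%. The other three held 9.14% ± 0.160 (KWMTBOMO00076), 8.41% ± 0.0816 (KWMTBOMO13329) and 5.12% ± 0.0578 (KWMTBOMO16009) of the 5 copies' counts (SD, n = 3). The SDs were 0.637% for KWMTBOMO09319 and 0.456% for KWMTBOMO09320, where counting error alone would give 0.117% and 0.109%. For KWMTBOMO16009 counting error alone would give 0.0518%, close to the SD seen. The coefficient of variation of a copy over the siUFBP1 libraries ran from 0.994% to 3.40% on the CPM scale.

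Copies without a siNC count were common in the table, but few were at this level. In all, 2405 of 15294 rows with any count had none in siNC, which is 15.7%, and their median level in siUFBP1 was 0.0862 CPM. Only 13 of them averaged 100 CPM or more in siUFBP1. The 5 tubulins were ranked 1, 2, 3, 4 and 6 among these rows by mean CPM, with the uncharacterised gene KWMTBOMO02681 at rank 5. They held 38.5% of the summed CPM of all such rows, at 4393 of 11408 CPM. Among all rows by FPKM in siUFBP1, KWMTBOMO09319 was at rank 28 and KWMTBOMO09320 at rank 53, against rank 95 for KWMTBOMO12286, which was at rank 27 in siNC.

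The make-up of the tubulin pool followed from these levels. The table names 15 tubulins, of which 4 are alpha, 1 gamma and 10 beta, the last including a fused gene model described below, KWMTBOMO12285. They took 1.31%, 1.31% and 1.37% of all counts in siUFBP1, against 0.842%, 0.903% and 0.909% in siNC. On the TMM scale the order of the groups was the opposite, at 10118 ± 159 CPM in siUFBP1 and 11666 ± 582 CPM in siNC (SD, n = 3 each). The 5 copies made up 43.4% ± 0.105 of tubulin counts in siUFBP1 and none of the 236551 to 286741 tubulin counts of a siNC library. KWMTBOMO12286 held 12.6% ± 0.118 of tubulin counts in siUFBP1 and 27.4% ± 0.197 in siNC (SD, n = 3 each).

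The balance of the chains differed between the groups, while the size of each sum depended on the scale. Per length, summed beta-tubulin was 3658 ± 96.9 FPKM in siUFBP1 and 1162 ± 46.8 FPKM in siNC (SD, n = 3 each), and the 3 beta copies made up 71.9% ± 0.0937 of it in siUFBP1. Beta-tubulin other than these copies was 1027 ± 30.7 FPKM in siUFBP1 and 1162 ± 46.8 FPKM in siNC. Summed alpha-tubulin was 3283 ± 62.1 FPKM in siUFBP1 and 3235 ± 171 FPKM in siNC, a difference within the spread of the libraries on this scale, with 16.3% ± 0.189 of it in the 2 alpha copies in siUFBP1. The ratio of beta to alpha was 1.11 ± 0.00933 in siUFBP1 and 0.359 ± 0.00477 in siNC, a ratio taken within libraries and so free of scaling between them, and among the 5 copies alone it was 4.91 ± 0.0842 in siUFBP1. FPKM lack the composition correction of TMM, and on the TMM scale summed alpha-tubulin was lower in siUFBP1, at 4342 ± 82.6 CPM against 7217 ± 401 CPM in siNC (SD, n = 3 each). Summed beta-tubulin was 5763 ± 80.4 CPM in siUFBP1 and 4443 ± 182 CPM in siNC, and without the 5 copies it was 2141 ± 23.7 CPM in siUFBP1 and 4443 ± 182 CPM in siNC. CPM sums are not corrected for length. The beta sums include KWMTBOMO12285, a fused gene model described below, at 528 ± 4.54 CPM in siUFBP1 and 1160 ± 37.9 CPM in siNC.

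**Figure D2:**
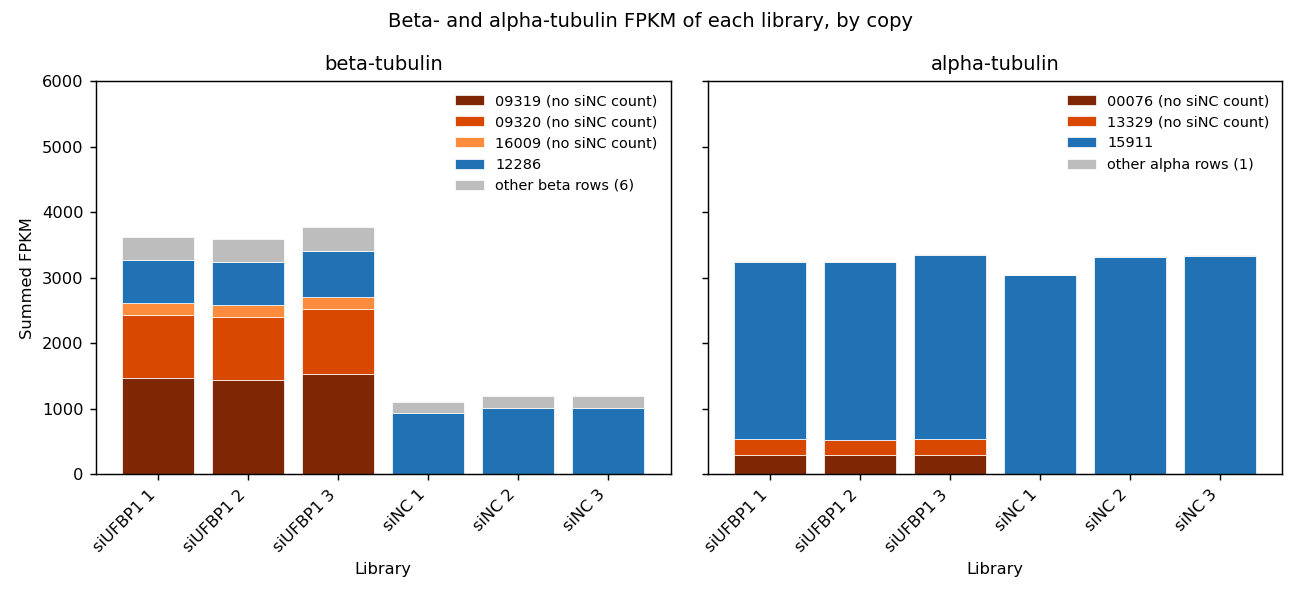
Summed FPKM of beta-tubulin (left) and alpha-tubulin (right) in each library, siUFBP1 before siNC, with bar segments for single copies and grey for the remaining rows. The beta bars average 3658 FPKM in siUFBP1 and 1162 FPKM in siNC, with the copies without siNC counts as the bulk of the siUFBP1 bars, while the alpha bars average 3283 FPKM in siUFBP1 and 3235 FPKM in siNC, though on the TMM scale summed alpha is lower in siUFBP1, at 4342 CPM against 7217 CPM in siNC.

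The alpha pool rested on a copy outside the 6. KWMTBOMO15911, an alpha-1 chain by Swiss-Prot, stood at 2740 ± 57.7 FPKM in siUFBP1 and 3231 ± 171 FPKM in siNC (SD, n = 3 each). In siUFBP1 the order per length ran KWMTBOMO15911, KWMTBOMO09319, KWMTBOMO09320, KWMTBOMO12286, KWMTBOMO00076, KWMTBOMO13329, KWMTBOMO16009 and KWMTBOMO16010, and no neighbours in this stretch overlapped. Below them KWMTBOMO12285 and KWMTBOMO12282 overlapped, at 106 ± 3.16 and 103 ± 2.85 FPKM in siUFBP1. KWMTBOMO12285 is named reverse transcriptase and carries domains of both tubulin and reverse transcriptase, so its level per length belongs to a fused gene model with an implied length of 6.52 kb. In siNC the order ran KWMTBOMO15911, KWMTBOMO12286, KWMTBOMO12285 and KWMTBOMO12282, with no overlap.

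Beta copies just outside the rule had a few siNC counts. KWMTBOMO16010, whose number follows that of KWMTBOMO16009, had 6283, 5867 and 13267 counts in siUFBP1, against 0, 4 and 0 in siNC, and its FPKM was 0.744 ± 0.0173 of that of KWMTBOMO16009 in siUFBP1. KWMTBOMO09321 had 14, 19 and 45 counts in siUFBP1, against 0, 3 and 0 in siNC. It follows KWMTBOMO09319 and KWMTBOMO09320, and in RefSeq's gene table for assembly ASM3026992v2 the genes LOC100101153, Tub4 and LOC693049, to which these 3 rows are linked, are consecutive. Side by side, these neighbours stood at 1482 ± 50.7, 970 ± 16.3 and 0.473 ± 0.117 FPKM in siUFBP1 (SD, n = 3). Reads shared between similar copies are a limit on all these values, and how such reads were assigned is not stated in the labels.

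Unlike the 6 copies, the other 9 tubulins could be tested, and they went both ways. edgeR's quasi-likelihood test, with calls at an adjusted p of 0.05, gave 5 higher, 3 lower and 1 that did not pass, where 40% of 10729 tested genes were higher and 28.4% lower. Across all genes the split was 80.2% higher and 4.21% lower with library size alone, and 33.9% higher and 35.5% lower with upper quartile scaling, as the median log2 fold change moved by 0.80 and by -0.14. The tubulins gave 6 higher and 2 lower with library size alone and 5 higher and 3 lower with upper quartile scaling.

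Of these 9, KWMTBOMO16010 showed the widest gap, with a ratio of summed normalised counts of 2983 (95% exact interval 1165 to 10948), and for KWMTBOMO09321 it was 12.2 (4.02 to 60.5). The intervals cover counting error only, over summed libraries. Both ratios rest on the second siNC library, without which no siNC count is left and the fitted log2 fold changes of 11.46 and 3.48 become 15.69 and 7.31. KWMTBOMO12282, a beta-3 chain by Swiss-Prot, had 159, 150 and 143 CPM in siUFBP1, against 73.9, 80.4 and 84.3 in siNC, a 1.89-fold rise (edgeR, adjusted p = 4.62e-12). The gamma-tubulin KWMTBOMO02437, the nucleating chain, had 12.2, 13.3 and 12.5 CPM in siUFBP1, against 6.30, 6.20 and 6.33 in siNC, a 2.01-fold rise (edgeR, adjusted p = 5.25e-09). The beta chain KWMTBOMO06086 had 80, 67 and 170 counts in siUFBP1, against 0, 18 and 16 in siNC, and its log2 fold change of 2.12 ± 0.39 (SE) passed in edgeR (adjusted p = 0.000103) but not in DESeq2's Wald test (adjusted p = 0.112) or the authors' deposited table (0.0915).

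The lower tubulins included the most abundant copy of both groups. The alpha-1 chain KWMTBOMO15911 had 3609, 3579 and 3495 CPM in siUFBP1, against 6772, 7288 and 7561 in siNC, a log2 fold change of -1.02 ± 0.03 (edgeR, adjusted p = 9.94e-15). On the log2 scale the fused gene model KWMTBOMO12285 was at -1.14 ± 0.03 and the beta chain KWMTBOMO06135 at -0.88 ± 0.10 (SE). With library size alone the values were -0.22, -0.34 and -0.08, and the last no longer passed (edgeR, adjusted p = 0.505). The alpha chain KWMTBOMO05362 had 9.67, 10.1 and 9.97 CPM in siUFBP1, against 9.84, 10.3 and 9.89 in siNC, and did not pass, but was higher by 0.79 on the log2 scale with library size alone.

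**Figure D3:**
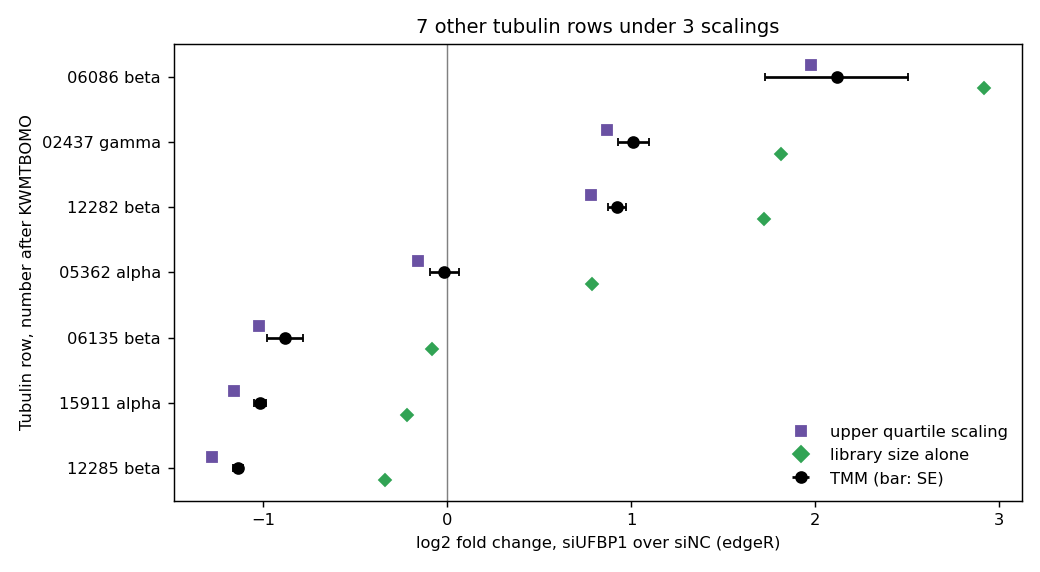
log2 fold change, siUFBP1 over siNC, of the 7 tubulins outside the 6 copies with more than 4 siNC counts, under TMM (circles, bars are SE), upper quartile scaling (squares) and library size alone (diamonds). KWMTBOMO06086, KWMTBOMO02437 and KWMTBOMO12282 lie above 0 under all 3, KWMTBOMO12285, KWMTBOMO15911 and KWMTBOMO06135 below 0, and KWMTBOMO05362 moves from -0.02 under TMM to 0.79 with library size alone.

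Genes most like each pattern were found by the distance between centred log2(CPM + 0.5) values over the 6 libraries, and for copies at 0 in siNC the added 0.5 sets the size of the pattern. Closest to the mean of the 5 copies was the gene of the large silk protein, fibroin heavy chain (KWMTBOMO15365), at a distance of 1.15, then fibroin light chain (KWMTBOMO08464) at 1.97 and KWMTBOMO16010 at 2.37. A UDP-glucosyltransferase (KWMTBOMO15198) and the KBP homolog (KWMTBOMO00053) followed, at 2.75 and 2.76. Unlike the copies, fibroin heavy chain was counted in siNC, at 107 ± 6.99 CPM, beside 71698 ± 9501 CPM in siUFBP1 (SD, n = 3 each). With a pseudocount of 0.1, fibroin heavy chain was at rank 7 and the KBP homolog and KWMTBOMO16010 came first, and with 2 fibroin light chain came first and fibroin heavy chain was at rank 3, so the order is a description of that scale only. Closest to KWMTBOMO12286 was a xanthine dehydrogenase-like gene (KWMTBOMO07216), at a distance of 0.0444 (rank 1 with 0.1 and 4 with 2 as pseudocount) and with 36.3 ± 0.138 CPM in siUFBP1 and 89.9 ± 3.09 CPM in siNC. A cartilage oligomeric matrix protein (KWMTBOMO11302), trehalose-phosphate synthase (KWMTBOMO07450), the translocon-associated protein delta subunit (KWMTBOMO14815) and GCN1 (KWMTBOMO06045) followed, at distances up to 0.0785.

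The partners of tubulin were then counted by role, from lists that leave out the 6 copies. Genes listed by name as tubulin chaperones split by kind. Of 7 genes listed by name as tubulin folding cofactors, 5 were higher (71.4%, against 40% of all tested genes) and 1 lower (14.3%, against 28.4%). Whether each folds tubulin was not tested. Their median log2 fold change was 0.65 where that of all tested genes was 0.11. All 7 were higher with library size alone, against 80.2% of all tested genes. Cofactor E-like protein (KWMTBOMO11057) averaged 37.7 ± 1.17 CPM in siUFBP1 and 3.36 ± 0.385 CPM in siNC (SD, n = 3 each), an 11.2-fold rise, cofactor D (KWMTBOMO05097) rose 3.33-fold and cofactor E (KWMTBOMO14470) 1.62-fold. Of 13 subunits of the TCP-1 chaperonin and of prefoldin, which fold new tubulin and actin chains, 1 was higher and 9 lower (median -0.30). These were 7.69% and 69.2%, against 40% and 28.4% of all tested genes. With library size alone, 12 were higher (92.3%, against 80.2%) and 1 lower. TCP-1 epsilon (KWMTBOMO00793) fell by 0.94 ± 0.04 on the log2 scale (SE), TCP-1 alpha (KWMTBOMO03626) by 0.59 ± 0.04, which turned to 0.21 with library size alone, and TCP-1 eta (KWMTBOMO14887) rose by 0.25 ± 0.04.

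Tubulin-modifying enzymes were mostly higher. Of 17 tested of 21 listed, 14 were higher and 1 lower (median 2.33), all 17 were higher with library size alone, and 9 of the 21 had no siNC count. Of the 17 tested, 11 had siNC counts, and 8 of these were higher and 1 lower. Tubulin polyglutamylase TTLL1 (KWMTBOMO10366), which adds glutamate to tubulin tails, averaged 83.4 ± 1.95 CPM in siUFBP1 (SD, n = 3) and was at 0 in siNC, at least 1830-fold higher against 3 counts over the group. Tubulin glycylase 3A (KWMTBOMO01786), named for adding glycine, averaged 47.7 ± 1.36 CPM in siUFBP1 and 0.272 ± 0.238 CPM in siNC, and polyglutamylase TTLL5 (KWMTBOMO14986) rose 15.7-fold (edgeR, adjusted p = 5.64e-13). The deacetylase HDAC6 (KWMTBOMO03083) was lower by 0.46 ± 0.15 on the log2 scale (SE; edgeR, adjusted p = 0.0118). That call ended without the first siNC library (-0.37, adjusted p = 0.0619, edgeR) or the third (-0.37, adjusted p = 0.0594, edgeR), and the sign turned with library size alone (0.35).

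Genes that nucleate and cut microtubules were higher where they passed. Of 8 tested genes of the gamma-tubulin ring complex and augmin, 6 were higher (75%, against 40% of all tested genes) and none lower. Upper quartile scaling gave 4 higher (50%, against 33.9%). Gamma-tubulin complex component 2-like (KWMTBOMO07934) rose by 1.11 ± 0.24 and mitotic-spindle organizing protein 1-like (KWMTBOMO03678) by 0.56 ± 0.11 on the log2 scale (SE). All 6 tested severing ATPase genes were higher, against 40% of all tested genes. Of these 6, 4 had siNC counts and 2 were without, which could only be called higher. The katanin subunit A-like 2 (KWMTBOMO12768) was at 0 in siNC and at least 68.2-fold higher in siUFBP1, and katanin p80 (KWMTBOMO01965), its regulatory subunit, rose 1.69-fold.

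Among microtubule-associated proteins the share of higher genes was close to that of all genes with TMM scaling, and the share of lower genes was above it. Of 14 tested, 6 were higher (42.9%, against 40% of all tested genes) and 6 lower (42.9%, against 28.4%). Of the 12 with siNC counts, 4 were higher and 6 lower, and the 2 without could only be called higher. Library size alone gave 9 higher (64.3%, against 80.2%) and no lower one. Jupiter (KWMTBOMO03911), which binds microtubules along their length in Drosophila, rose 14.3-fold and futsch (KWMTBOMO12781), a MAP1-type protein of Drosophila neurons, 1.85-fold. The linker protein CLIP1 (KWMTBOMO10163) was at 0 in siNC and at least 113-fold higher in siUFBP1. CLASP (KWMTBOMO01004), which steadies plus ends, had a log2 fold change of -0.56 ± 0.05 (SE), or 0.24 with library size alone.

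Of 23 tested kinesins, 14 were higher (60.9%, against 40% of all tested genes) and 1 lower (4.35%, against 28.4%). Library size alone gave 21 higher (91.3%, against 80.2%) and no lower one. The mitotic kinesin KIF4 (KWMTBOMO15389) rose 10.1-fold, the spindle kinesin Ncd (KWMTBOMO05646) 4.18-fold and kinesin-associated protein 3 (KWMTBOMO01930), of the kinesin-2 motor, 1.94-fold. The lower member was kinesin light chain (KWMTBOMO10739), a cargo adaptor, at -0.56 ± 0.08 on the log2 scale (SE), or 0.25 with library size alone. Of 15 genes of cytoplasmic dynein and dynactin, 8 were higher (53.3%) and 5 lower (33.3%, against 28.4% of all tested genes). Among the 14 of these with siNC counts, 7 were higher and 5 lower. Library size alone gave 12 higher of the 15 (80%, against 80.2%) and no lower one. Dynein light chain 2 (KWMTBOMO09391) rose 3.71-fold, while the cytoplasmic dynein heavy chain (KWMTBOMO12602), the motor itself, fell by 0.90 ± 0.05 on the log2 scale (SE), a call that ended with library size alone (-0.09; edgeR, adjusted p = 0.185).

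Axoneme genes were mostly higher in siUFBP1. Of 37 tested of 69 listed genes of axonemal dynein and its assembly, 35 were higher (94.6%, against 40% of all tested genes) and 2 lower (5.41%, against 28.4%). Of the 69, 63 had a count, and 40 of these had none in siNC, against 15.7% of all rows with any count. Of the 37 tested, 16 were without a siNC count, against 6.35% of all tested genes, and so could only be called higher. Of the other 21, with siNC counts, 19 were higher and 2 lower. The summed level of the listed genes was 366 to 377 CPM in siUFBP1 and 75.6 to 79.7 CPM in siNC. Ciliary dynein intermediate chain 3 (KWMTBOMO01610) averaged 60.1 ± 3.52 CPM in siUFBP1 (SD, n = 3) and was at 0 in siNC, at least 1300-fold higher, and a ciliary dynein beta chain (KWMTBOMO15296) rose 18.2-fold. The lower pair was axonemal dynein heavy chain 2 (KWMTBOMO07001), at -0.83 ± 0.16, and another intermediate chain 3 gene (KWMTBOMO06709), at -0.85 ± 0.20 (SE, log2), and neither passed with library size alone (-0.03 and -0.04).

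Of 60 tested of 74 listed genes for radial spokes, the central pair and other flagellar parts, 59 were higher (98.3%, against 40% of all tested genes) and 1 did not pass. Of the 60, 40 had no siNC count, against 6.35% of all tested genes, and so could only be called higher. Of the remaining 20, with siNC counts, 19 were higher. Summed, they stood at 458 to 466 CPM in siUFBP1 and 11.6 to 12.9 CPM in siNC, so the groups were far apart. Tektin-4-like (KWMTBOMO16172), a filament protein of the axoneme, was at least 903-fold higher in siUFBP1 over 0 in siNC, and IQ domain protein G (KWMTBOMO15349), a part of the dynein regulatory complex, at least 552-fold.

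Of 40 tested genes of intraflagellar transport and the basal body, 32 were higher (80%, against 40% of all tested genes) and 2 lower (5%, against 28.4%). Of the 29 with siNC counts, 21 were higher. IFT57 (KWMTBOMO08443) was at least 97.2-fold higher in siUFBP1 over 0 in siNC, and IFT52 (KWMTBOMO11910), a subunit of the same transport complex, fell 2.56-fold. Of 5 tested actins, the other main filament, 2 were higher (40%, as of all tested genes) and 3 lower (60%, against 28.4%). Actin-85C (KWMTBOMO00029) was at 0 in siNC and could only be called higher, and of the 4 with siNC counts, 1 was higher and 3 lower. An actin matched to a muscle actin of Manduca sexta in Swiss-Prot (KWMTBOMO16159) averaged 1598 ± 15.7 CPM in siUFBP1 and 847 ± 58.3 CPM in siNC (SD, n = 3 each), whereas cytoplasmic beta-actin (KWMTBOMO10175) averaged 1155 ± 1.76 CPM in siUFBP1 and 2096 ± 126 CPM in siNC. With library size alone the beta-actin value was -0.06 on the log2 scale and did not pass (edgeR, adjusted p = 0.196). Actin-5C (KWMTBOMO10174) was at -0.61 ± 0.04, or 0.18 with library size alone, and actin, muscle-type A2 (KWMTBOMO04835) at -1.12 ± 0.15 (SE, log2).

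**Figure D4:**
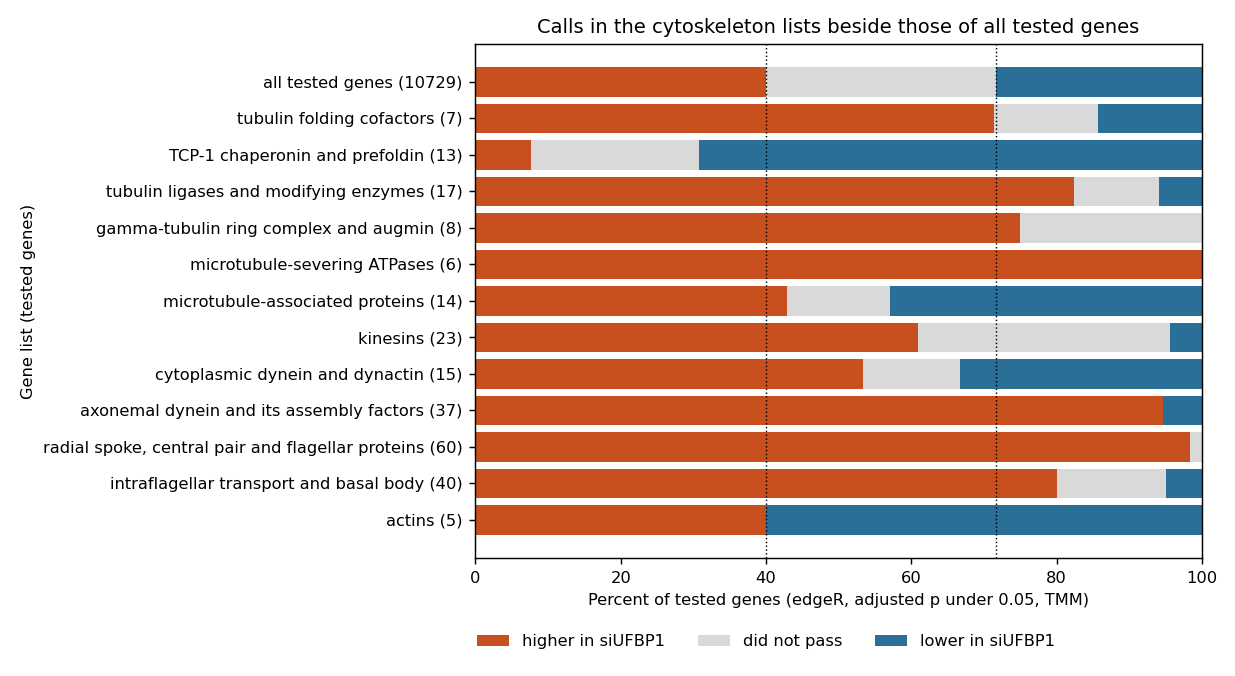
Percent of tested genes higher, not passing and lower in siUFBP1 (edgeR, adjusted p under 0.05, TMM) in 12 cytoskeleton lists, with the number tested in brackets and dotted lines at the shares of all tested genes. Of the 60 radial spoke and flagellar genes 59 were higher, against 40% of all tested genes. Of these 60, 40 had no siNC count and could only be called higher, and of the other 20, 19 were higher. Genes without a siNC count were also 16 of 37 for axonemal dynein and 11 of 40 for intraflagellar transport, against 6.35% of all tested genes. Of the 13 TCP-1 and prefoldin genes 9 were lower, against 28.4% of all tested genes, and 12 were higher with library size alone, against 80.2%.

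Markers of other tissues moved in the same libraries, where 40% of all tested genes were higher and 28.4% lower. Of 8 tested testis and sperm genes, 7 were higher (4 of the 5 with siNC counts). The summed level of the list was 211 to 253 CPM in siUFBP1 and 35.3 to 37.7 CPM in siNC. Most of the siNC sum was KWMTBOMO00694, the gene called lower, at 34.8, 32.0 and 32.5 CPM in siNC. At 0 in siNC were the testis-specific kinases 2 (KWMTBOMO15186) and 3 (KWMTBOMO11573) and spermatogenesis-associated protein 17 (KWMTBOMO10979). Testis-specific kinase 6 (KWMTBOMO07999) had 1031, 0 and 2327 counts in siUFBP1, against 0, 2 and 2 in siNC, an example of a lone 0 among clear counts. The lower gene, testis-expressed protein 9 (KWMTBOMO00694), had 752, 728 and 1450 counts in siUFBP1, against 745, 780 and 657 in siNC, and turned to 0.16 on the log2 scale with library size alone.

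The silk gland list had 5 higher among 6 tested (83.3%, against 40% of all tested genes), and took 10.1% to 11.8% of all counts in siUFBP1 and 0.050% to 0.053% in siNC. Muscle genes were higher in 12 of 12 tested, 11 of them with siNC counts and 1 without, which could only be called higher. Summed, the muscle genes stood at 1766 to 1794 CPM in siUFBP1 and 582 to 614 CPM in siNC. Storage genes of the fat body were lower in 31 of 41 tested (75.6%, against 28.4% of all tested genes) and higher in 1. They took 47.8% to 49.2% of counts in siUFBP1 and 74.3% to 74.8% in siNC, the largest share among the marker lists in all 6 libraries. With library size alone 17 of the storage genes were lower and 15 higher. What part these tissues have in the levels of the tubulin copies was not tested. Nothing in the labels says that the libraries come from separate animals, so p-values measure the spread between libraries, which may be technical.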

How the data were processed

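Total RNA was made into libraries (SMARTER mRNA-Seq, per the labels), and fastp and HISAT2 are named in the submitters' processing notes. Not given in the sources used here are the genome build, the counter, and how strand and shared reads were treated. Raw counts per gene stand in the deposited table beside FPKM, the authors' values per length and depth, per the file headers. The authors' log2 fold changes and false discovery rates stand in the same table. Totals ran from 25570725 to 53204480 counts per library, and limits for 0 cover counting error only.

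Genes were filtered with filterByExpr, which left 10729 of 16877 rows for edgeR's quasi-likelihood test with TMM factors (1.28, 1.30 and 1.38 in siUFBP1, and 0.763, 0.767 and 0.746 in siNC) and group as the only term. A gene was called where its p, adjusted by Benjamini and Hochberg's method over all tested genes, was under 0.05. The edgeR fit was also run on simulated counts, with a spread taken from these data and far fewer changed genes than here. FPKM were used for levels between genes and in limma-trend, with a pseudocount of 1 or of 0.1 before log2. Same-numbered libraries did not deviate together (correlations 0.0242, -0.0187 and 0.0184).

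Members and gene lists were chosen with earlier results of these data known. The 19 lists are patterns on product names, and some patterns were widened and 47 rows removed by description once the table was at hand, before list statistics were seen. Named were all tubulins, up to 3 higher and 3 lower called genes of each list by adjusted p (not all are printed, and some marker rows were named for their counts), and the 5 genes nearest to each pattern. Of the 6 copies, 4 had a silkworm gene number, and all 4 were found in RefSeq's gene table, used for names and neighbours. Alternatives were DESeq2 size factors and Wald test, upper quartile scaling, library size alone, other filters, limma-voom, a replicate block, leaving out each library and a 2-fold minimum. Versions were DESeq2 1.42.0, edgeR 4.0.16, limma 3.58.1, Python 3.11.15 and R 4.3.3.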

Additional observations from a re-analysis of the deposited data

How the results depend on the processing

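The level of the 5 copies and the difference in KWMTBOMO12286 depend on scaling. Summed CPM of the 5 copies in siUFBP1 was 4393 with TMM, 4184 with upper quartile scaling and 5791 with library size alone, and ran from 4151 to 4653 when a library was left out. The log2 difference of KWMTBOMO12286 was -1.47 with upper quartile scaling, -0.53 with library size alone and -0.54 on log2(FPKM + 1), and from -1.36 to -1.30 with a library left out. The 5 copies held 45.6% of tubulin FPKM against 43.4% of tubulin counts in siUFBP1. The UFBP1 transcript was at -0.14 with upper quartile scaling, 0.80 with library size alone, and 0.77 and 0.78 on log2(FPKM + 1) and log2(FPKM + 0.1), against 0.00434 with TMM.

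Over all genes, 4293 were higher and 3043 lower. Library size alone gave 8604 and 452, the FPKM fits 6625 and 6601 higher with 406 lower each, and a 2-fold minimum 2436 and 548. The 12 cytoskeleton lists and other tubulins held 326 genes, not all of them tested. Of these, 193 were higher and 33 lower with TMM, beside 40% and 28.4% of all tested genes. Genes without a siNC count could only be called higher. Library size alone gave 235 higher and 5 lower, beside 80.2% and 4.21% of all tested genes. The FPKM fits each gave 171 higher and 4 lower. A 2-fold minimum gave 157 and 5, beside 22.7% and 5.11%. In the order library size alone, log2(FPKM + 1) and log2(FPKM + 0.1), these log2 fold changes changed sign: KWMTBOMO05362 to 0.79, 0.64 and 0.75, TCP-1 alpha KWMTBOMO03626 to 0.21, 0.19 and 0.19, HDAC6 KWMTBOMO03083 to 0.35, 0.20 and 0.31, CLASP KWMTBOMO01004 to 0.24, 0.20 and 0.22, kinesin light chain KWMTBOMO10739 to 0.25, 0.20 and 0.22, actin-5C KWMTBOMO10174 to 0.18, 0.17 and 0.17, and testis-expressed protein 9 KWMTBOMO00694 to 0.16, 0.13 and 0.14. Both settings leave out the composition correction that TMM makes.

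With replicate number as a block, 4019 genes were higher and 2823 lower, 5 and 3 of the other tubulins, and 188 and 31 of the cytoskeleton genes, and the UFBP1 transcript was at 0.00179 (edgeR, adjusted p = 0.982). DESeq2 size factors, limma-voom, the replicate block and the filters kept the direction and the call of all 47 genes tested for this. With a library left out, other tubulins stayed at 5 higher and 3 lower, and only HDAC6 lost its call among these genes. Other pseudocounts for likeness (0.1 and 2) were chosen after seeing the data. TPM from counts was not run, since the table gives no gene length. Depth limits statements on the copies in siNC to counts above 3 per library.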

Other observations

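Markers of blood cells and of the germ line, which a dissected fat body could carry, were more often lower than higher with TMM scaling. With that scaling, 40% of all tested genes were higher and 28.4% lower. With library size alone, a smaller share of these markers was higher than the 80.2% of all tested genes. Of 18 tested hemocyte genes, 3 were higher and 11 lower, with a summed level of 176 to 182 CPM in siUFBP1 and 247 to 262 CPM in siNC, while scaling by library size gave 10 higher (55.6%) and 4 lower. Of 6 tested ovary and germ line genes, 1 was higher and 4 lower, at 45.7 to 46.1 CPM in siUFBP1 and 59.1 to 60.1 CPM in siNC, while scaling by library size gave 2 higher (33.3%) and none lower. The higher gene with TMM, chorion early B (KWMTBOMO00761), averaged 0.309 CPM in siUFBP1. It was at 0 in siNC and could only be called higher, and of the 5 genes with siNC counts none was higher and 4 were lower.

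Small counts in the table have an uneven shape. Rows with exactly 1 count numbered 96 to 126 in the siUFBP1 libraries and 95 to 118 in the siNC libraries, beside 418 to 603 and 581 to 617 rows with exactly 2 counts. No cause was tested.

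The authors' deposited table gives KWMTBOMO12286 a log2 fold change of -1.33, KWMTBOMO16010 of 11.54 and the gamma-tubulin KWMTBOMO02437 of 1.00, and lists none for KWMTBOMO09321.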
